A study of Mus musculus with 32 samples.

Results

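Tumours of the OSE-BPR mouse model of high-grade serous ovarian cancer, grown as allografts, were compared with allografts of the Ad-BPR model across all genes. The 5 libraries titled OSE-BPR allograft were set against the 4 titled Ad-BPR allograft, which are 9 of the 32 RNA-seq libraries of the series. All 9 allografts are labelled Brca1 fl/fl and Trp53 fl/fl, with the transgene K18GT121 Tg/+. Recombination was started in both models by an adenovirus that carries Cre recombinase. It was given under the ovarian bursa in OSE-BPR mice, next to the ovarian surface epithelium (OSE), and into the oviduct in Ad-BPR mice. OSE-BPR tumours are on the FVB strain and Ad-BPR tumours on C57Bl/6, so site of induction and strain cannot be told apart from these groups alone. The GEMM tumours (the primary tumours of the genetically engineered mice) of both models, with the same alleles, agents and strains (3 OSE-BPR and 2 Ad-BPR), serve as a second comparison. Levels are also given for C57Bl/6 tumours of 2 kinds: Pax8-BPR, which add Pax8-CreERT2 Tg/+, and Ovgp1-BPR, which carry Brca1 fl/fl with the Trp53 KozR172H ki/+ allele, together with K18GT121 Tg/+ and Ovgp1-CreERT2 Tg/+. Wild-type C57Bl/6 ovary and oviduct (3 libraries each) give the levels in normal tissue. Ages, the host animals and the source tumours of the allografts are not given in the sources used here, and all animals are female.

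The ovarian surface epithelium is the thin mesothelium-like layer that covers the ovary and derives from the coelomic lining of the gonad. The oviduct epithelium derives from the Müllerian duct and holds secretory and ciliated cells. Both have been proposed as cells of origin of high-grade serous carcinoma. The floxed Brca1 gene serves homologous recombination, Trp53 encodes the p53 protein, and the T121 fragment of a viral T antigen, driven by keratin 18 regulatory sequence, inactivates the RB family of cell-cycle inhibitors.

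The libraries held 14135363 to 18038762 counts in OSE-BPR allografts and 15353374 to 18789243 in Ad-BPR allografts, with at least 99.6% of counts in the 16390 genes tested. The Spearman correlation of expression was 0.748 to 0.796 between libraries of different models. Ad-BPR replicates 1 and 2 lay closest together (0.98), as did replicates 3 and 4 (0.973), against 0.925 to 0.931 across these pairs. OSE-BPR replicates 1, 3 and 4 (0.956 to 0.966) and replicates 2 and 5 (0.951) formed similar sets, against 0.93 to 0.94 across them. The labels do not say whether libraries share a source tumour, so p-values measure only the spread among these libraries, which may be technical. The fit was therefore also run with the closest libraries summed, 2 against 2, an alternative added after the data were seen and named below as the summed fit. Trp53 stood at 15.5, 12.2, 9.15, 13.7 and 12.8 CPM in OSE-BPR allografts, against 16.6, 18.8, 20.4 and 21.3 CPM in Ad-BPR allografts (log2 fold change -0.61 ± 0.21, adjusted p = 0.0384), with no overlap. Its level was 117 ± 4.09 CPM in normal ovary and 87.7 ± 6.06 CPM in normal oviduct. The Trp53 call was lost in the summed fit (adjusted p = 0.257) and without any 1 of 7 libraries, namely OSE-BPR replicates 2, 3, 4 and 5 or Ad-BPR replicates 2, 3 and 4 (adjusted p = 0.0594 to 0.0789). Gene totals do not separate floxed exons from the rest, so Brca1 (26.9 ± 6.57 CPM in OSE-BPR allografts and 32.6 ± 4.76 CPM in Ad-BPR allografts, adjusted p = 0.32) gives no check of its deletion. Rb1 (adjusted p = 0.635), Cdkn2a (adjusted p = 0.356) and Krt18 (657 ± 244 CPM in OSE-BPR allografts and 1166 ± 399 CPM in Ad-BPR allografts, adjusted p = 0.0583) were not called either. Krt18 was called by DESeq2 (adjusted p = 0.03) and without OSE-BPR replicates 1 or 3 or Ad-BPR replicate 1.

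The models differed across much of the transcriptome. By edgeR's quasi-likelihood test, with p-values adjusted by Benjamini and Hochberg's method over all 16390 genes, 7208 genes (44%) passed an adjusted p of 0.05. Of these, 3629 (22.1% of the genes tested) were higher in OSE-BPR allografts and 3579 (21.8%) were lower. The libraries of the models did not overlap for 6285 genes (38.3%), and 5298 called genes differed by more than 1 log2 unit. Fold changes here are OSE-BPR over Ad-BPR on the log2 scale, given with their standard error, and levels are CPM (counts scaled to a common library size). The summed fit called 2883 genes, of which 2515 were among the 7208 with the same direction. The median log2 fold change over all genes was 0.03, and it was 0.20 with limma on log2(TPM + 1), a setting that changes both the values and the test. The share of calls that were higher was 62.4% in that setting, against 50.3% with edgeR on counts.

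The genes most in excess in OSE-BPR allografts included several at or near 0 in every Ad-BPR library. Where a model was at 0 in all its libraries, the fold is given as a lower bound computed against a floor of 3 counts per library. Cst12, which encodes a cystatin, stood at 46.5, 210.5, 61.2, 81.2 and 58.8 CPM in OSE-BPR allografts, against 0, 0, 0 and 0 CPM in Ad-BPR allografts, at least 488-fold higher (adjusted p = 0.000124). Usp29, a gene of the imprinted Peg3 domain, stood at 60.8, 28.6, 54.7, 43.2 and 44 CPM in OSE-BPR allografts, against 0, 0, 0 and 0 CPM in Ad-BPR allografts, at least 246-fold higher (adjusted p = 1.33e-05). Both stood well above 0 in each OSE-BPR library. Scn10a, a voltage-gated sodium channel, stood at 25.2, 21.5, 61.6, 45.5 and 15.8 CPM in OSE-BPR allografts, against 0, 0, 0 and 0 CPM in Ad-BPR allografts, at least 181-fold higher (adjusted p = 0.000112). Tdh, the mitochondrial threonine dehydrogenase, stood at 65.9, 24.1, 110.4, 344 and 33.1 CPM in OSE-BPR allografts, against 0, 0.0587, 0 and 0 CPM in Ad-BPR allografts, and the Ad-BPR value rests on a single read (adjusted p = 0.000126). Others varied widely within OSE-BPR. The homeobox factor Tlx1 stood at 86.1, 11.2, 76.3, 148 and 0.188 CPM in OSE-BPR allografts, against 0, 0, 0 and 0 CPM in Ad-BPR allografts (adjusted p = 0.00729), with replicate 5 near 0. Ctnna2 (alpha-N-catenin) and Hepacam (a glial and hepatic adhesion molecule) were also at 0 in all Ad-BPR libraries, with OSE-BPR ranges of 1.02 to 119 CPM (adjusted p = 0.0132) and 0.705 to 75.1 CPM (adjusted p = 0.00832), and the Ctnna2 call was lost in the summed fit (adjusted p = 0.0612). The remaining members of this group were Dsc3, Tmem114, Aard, Nr0b1 and Irs4, each with no more than 3 counts summed over the Ad-BPR libraries.

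The 12 genes with the largest fold change to the lower side were at or near 0 CPM in each OSE-BPR library. Gabrp, a GABA receptor subunit of epithelial tissues, stood at 0, 0, 0, 0 and 0 CPM in OSE-BPR allografts, against 1158, 1125, 306 and 599.6 CPM in Ad-BPR allografts, at least 4458-fold lower (adjusted p = 6.31e-05). Ltf (lactotransferrin), a secreted iron-binding protein of the reproductive tract, stood at 0.226, 0.107, 0, 0 and 0 CPM in OSE-BPR allografts, against 5145, 5790, 229.6 and 327 CPM in Ad-BPR allografts (log2 fold change -15.17 ± 1.55, adjusted p = 7.32e-05). In normal tissue Ltf averaged 1490 ± 447 CPM in oviduct and 0.422 ± 0.341 CPM in ovary. Ltf in Ad-BPR replicates 3 and 4 was far below replicates 1 and 2, yet far above each OSE-BPR library. Cxcl17, a mucosal chemokine, stood at 0, 0, 0, 0 and 0 CPM in OSE-BPR allografts, against 102, 132, 108 and 78.9 CPM in Ad-BPR allografts, at least 588-fold lower (adjusted p = 9.90e-06). Muc4, a membrane mucin, stood at 0.0565, 0, 0, 0 and 0 CPM in OSE-BPR allografts, against 373, 524, 66.4 and 60.5 CPM in Ad-BPR allografts (adjusted p = 2.41e-05). Krt6a, a keratin of stressed and hyperproliferative epithelium, stood at 0, 0.107, 0, 0.064 and 0 CPM in OSE-BPR allografts, against 706, 416, 364 and 536 CPM in Ad-BPR allografts (adjusted p = 7.78e-07), the lowest adjusted p of the 24 genes named for their fold. Pitx1 and Foxn1, transcription factors of hindlimb and of thymic and hair epithelium, were at 0 in all OSE-BPR libraries and at 19.1 to 83.1 CPM and 13.7 to 67.5 CPM in the Ad-BPR libraries. Tmprss11e, Adgra1, Krt5 and Gc were likewise at 0 in each OSE-BPR library, and Pigr had a single read. The Gc call was lost in the summed fit (adjusted p = 0.0589), and Gc ranged from 1.12 to 313 CPM within Ad-BPR.

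**Figure D1:**
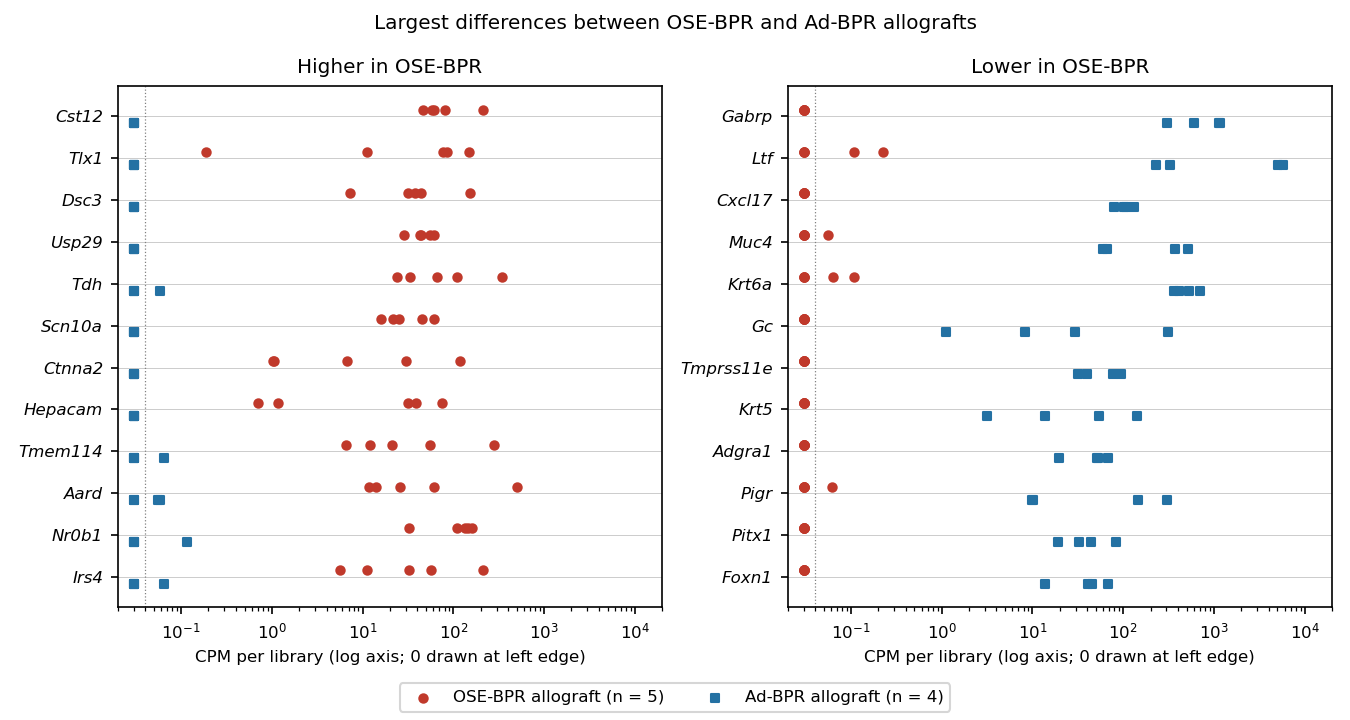
Levels of the 24 genes with the largest fold change among called genes without overlap, one row per gene. Each point is 1 library on a log-scaled axis of CPM; OSE-BPR allografts are drawn above Ad-BPR allografts in each row, and zeros sit at the left edge. In each row the points of the models stay apart, as for Gabrp at 0 in all 5 OSE-BPR allografts and 306 to 1160 CPM in the 4 Ad-BPR allografts.

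Imprinted genes, which are expressed from 1 parental allele, were among the groups furthest above in OSE-BPR allografts. Of 20 tested, 13 were higher and 3 lower, with a median log2 fold change of 3.27, against a background of 22.1% higher and 21.8% lower and a median of 0.03 over all genes. The Peg3 domain on mouse chromosome 7 holds Peg3, a paternally expressed zinc-finger gene, Usp29, which is transcribed from the opposite strand of the same start region, and the maternally expressed Zim1. Peg3 (chr7:6703892-6730431 in GRCm38) stood at 2369, 819, 1516, 1037 and 876 CPM in OSE-BPR allografts, against 1.12, 5.17, 3.8 and 9.27 CPM in Ad-BPR allografts (log2 fold change 8.08 ± 0.71, adjusted p = 3.40e-05). Zim1 (chr7:6671269-6696450) stood at 432, 112, 206, 238 and 73 CPM in OSE-BPR allografts, against 0.0703, 0.0587, 0.59 and 1.73 CPM in Ad-BPR allografts (log2 fold change 8.38 ± 0.98, adjusted p = 0.000153). Usp29 (chr7:6730578-6967219) is described above. For all 3 genes the lowest OSE-BPR library was many-fold above the highest Ad-BPR library, although the genes are expressed from different parental alleles. In normal ovary and oviduct Peg3 averaged 35.2 ± 2.04 CPM and 29.3 ± 2.53 CPM, so OSE-BPR allografts stood above normal tissue and Ad-BPR allografts below it.

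The promoters of the domain are shown because its genes moved together. The RefSeq windows run from 250 bases before to 50 after each start, and the starts of Usp29 (forward strand) and Peg3 (reverse strand) lie 164 bases apart, so that 263 bases are common to both windows. The forward strand of the Usp29 window (chr7:6730333-6730632, GRCm38.p6) and the reverse strand of the Zim1 window (chr7:6696383-6696682, GRCm38.p6) are printed 5′ to 3′, with motif matches in capitals.
Usp29: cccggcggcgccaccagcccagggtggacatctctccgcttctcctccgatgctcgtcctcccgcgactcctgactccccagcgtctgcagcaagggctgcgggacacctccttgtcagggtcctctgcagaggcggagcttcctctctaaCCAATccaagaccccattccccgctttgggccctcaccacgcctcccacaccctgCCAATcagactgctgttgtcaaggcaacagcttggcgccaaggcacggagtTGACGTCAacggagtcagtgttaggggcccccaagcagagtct
Zim1: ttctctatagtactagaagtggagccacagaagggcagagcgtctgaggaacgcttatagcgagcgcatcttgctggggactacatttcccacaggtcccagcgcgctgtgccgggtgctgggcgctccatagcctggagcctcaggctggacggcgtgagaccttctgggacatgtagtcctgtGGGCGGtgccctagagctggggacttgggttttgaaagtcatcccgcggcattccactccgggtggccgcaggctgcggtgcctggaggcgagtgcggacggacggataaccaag
The motifs searched, on both strands, were the CCAAT box (CCAAT), the cyclic AMP response element (TGACGTCA), the GC box (GGGCGG) and the TATA box (TATAAA). Their matches do not overlap each other in these windows. The Usp29 window held 2 CCAAT matches between the Peg3 start (position 87) and the Usp29 start and 1 TGACGTCA match after the Usp29 start, and the Zim1 window held 1 GGGCGG match. Of 32851 promoter windows of this length, 37.4% held a CCAAT box, 1.79% the cyclic AMP response element, 35.7% a GC box and 13.6% a TATA box. A match describes the letters of the reference genome, which is of C57BL/6 origin, and is not a measurement of binding.

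The other imprinted genes divided. H19, a maternally expressed noncoding RNA, stood at 631, 489.5, 167, 565 and 452 CPM in OSE-BPR allografts, against 16.3, 2.82, 17.5 and 4.58 CPM in Ad-BPR allografts (log2 fold change 5.49 ± 0.69, adjusted p = 0.000223). Its paternally expressed neighbour Igf2, a growth factor, stood at 3435, 173, 49, 319 and 335 CPM in OSE-BPR allografts, against 1.62, 3.7, 9.63 and 49.9 CPM in Ad-BPR allografts (log2 fold change 5.73 ± 1.57, adjusted p = 0.0143), and the range within OSE-BPR was wide. In the summed fit the Igf2 call was lost (adjusted p = 0.0717). Cdkn1c, the maternally expressed inhibitor of cyclin-dependent kinases, stood at 752, 182, 178, 139.8 and 126 CPM in OSE-BPR allografts, against 6.82, 4.64, 0.917 and 0.391 CPM in Ad-BPR allografts (log2 fold change 6.44 ± 1.01, adjusted p = 0.000759). All 3 of these genes were higher in OSE-BPR. H19 and Cdkn1c did not overlap, and Igf2 did, at 49 CPM in OSE-BPR replicate 3 against 49.9 CPM in Ad-BPR replicate 4. In the opposite direction were Igf2r, the maternally expressed receptor that clears IGF2 (log2 fold change -1.45 ± 0.26, adjusted p = 0.00162), and the maternally expressed noncoding RNAs Meg3 and Rian. Meg3 stood at 1.3, 6.1, 0.307, 0.192 and 0.25 CPM in OSE-BPR allografts, against 39.7, 11.7, 97 and 81.5 CPM in Ad-BPR allografts (log2 fold change -5.11 ± 1.07, adjusted p = 0.00358). Rian averaged 1.44 ± 1.43 CPM in OSE-BPR allografts and 19.3 ± 12.3 CPM in Ad-BPR allografts (log2 fold change -3.72 ± 0.74, adjusted p = 0.00269), and its call was lost in the summed fit (adjusted p = 0.0746).

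Transcription factors of the gonad and the coelomic lining were higher in OSE-BPR allografts for 10 of 20 tested members and lower for 3. The median log2 fold change was 2.00, and over all genes 22.1% were higher and 21.8% lower. Gata4, a zinc-finger factor required for formation of the genital ridge, stood at 466, 422, 585, 374 and 429 CPM in OSE-BPR allografts, against 14.7, 11.4, 9.43 and 15.6 CPM in Ad-BPR allografts (log2 fold change 5.15 ± 0.24, adjusted p = 1.74e-06). Wt1, a factor of coelomic mesothelium and gonad that is also a marker of serous carcinoma, stood at 984, 741, 982, 978 and 854 CPM in OSE-BPR allografts, against 257, 254, 226 and 127 CPM in Ad-BPR allografts (log2 fold change 2.07 ± 0.23, adjusted p = 0.000128). Nr0b1 (DAX1), a nuclear receptor of gonads and adrenal glands, stood at 161, 144, 136, 110.3 and 32.6 CPM in OSE-BPR allografts, against 0, 0.117, 0 and 0 CPM in Ad-BPR allografts (adjusted p = 1.12e-05). These 3 genes were above all Ad-BPR libraries in each OSE-BPR library, and Wt1 was also well expressed in Ad-BPR. Bnc1 (basonuclin), a zinc-finger factor of reproductive and squamous epithelium, averaged 189 ± 93 CPM in OSE-BPR allografts and 0.776 ± 0.895 CPM in Ad-BPR allografts (log2 fold change 7.95 ± 0.78, adjusted p = 5.99e-05). Nr5a1, the master regulator of steroidogenic and supporting cells of the gonad, averaged 211 ± 60.4 CPM in OSE-BPR allografts and 0.914 ± 1.19 CPM in Ad-BPR allografts (log2 fold change 7.79 ± 0.89, adjusted p = 0.000131). Lhx9, which acts in the early gonad and the ovarian surface, stood at 728, 67.6, 481, 521 and 16 CPM in OSE-BPR allografts, against 0, 0.411, 0.328 and 0.558 CPM in Ad-BPR allografts (log2 fold change 10.05 ± 1.40, adjusted p = 0.000398), with a wide range within OSE-BPR. Six4, which acts upstream of gonad formation in the mouse, went the other way and averaged 1.78 ± 1.32 CPM in OSE-BPR allografts and 11.2 ± 5.47 CPM in Ad-BPR allografts (log2 fold change -2.64 ± 0.58, adjusted p = 0.0048). The call of Nr2f2 (log2 fold change -0.91 ± 0.29, adjusted p = 0.0284) was lost in the summed fit (adjusted p = 0.118) and without OSE-BPR replicate 2, Ad-BPR replicate 1 or Ad-BPR replicate 3 (adjusted p = 0.0582 to 0.0753).

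Transcription factors of the Müllerian duct and oviduct showed the reverse, with 11 of 14 tested members lower in OSE-BPR allografts and 1 higher. The median log2 fold change was -7.12, and over all genes 21.8% were lower and 22.1% higher. Members near 0 in OSE-BPR allografts, such as Foxa2 and Lhx1, pass the filter on low counts only through Ad-BPR libraries. The filter therefore partly set the count of lower members. Pax8, a paired-box factor used to mark tumours of Müllerian origin, stood at 2.09, 0, 0, 0 and 0 CPM in OSE-BPR allografts, against 173, 166, 23.6 and 19.7 CPM in Ad-BPR allografts (log2 fold change -7.77 ± 1.42, adjusted p = 0.0017). Pax8 was at 0 in 4 of 5 OSE-BPR libraries, and Ad-BPR replicates 1 and 2 stood far above replicates 3 and 4. In the summed fit its adjusted p was 0.0503. Foxa2, a factor of uterine gland formation, stood at 0, 0.161, 0, 0 and 0 CPM in OSE-BPR allografts, against 9.57, 11.1, 33.1 and 30.6 CPM in Ad-BPR allografts (adjusted p = 6.87e-05). Lhx1, needed for the Müllerian duct to form, averaged 0.0728 ± 0.0817 CPM in OSE-BPR allografts and 17.9 ± 9.1 CPM in Ad-BPR allografts (log2 fold change -7.82 ± 0.79, adjusted p = 6.93e-05). Sox17, expressed in Müllerian and serous carcinoma epithelium, averaged 1.34 ± 0.666 CPM in OSE-BPR allografts and 40.5 ± 25.6 CPM in Ad-BPR allografts (log2 fold change -4.91 ± 0.56, adjusted p = 0.000131). For Foxa2, Lhx1 and Sox17 the groups did not overlap. Emx2 (95.3 ± 41.8 against 67.1 ± 33 CPM, OSE-BPR against Ad-BPR, adjusted p = 0.351) and the estrogen receptor Esr1 (59.9 ± 40.4 against 113 ± 103 CPM, adjusted p = 0.38) did not pass the test. The member that was higher, Pax2, averaged 1.54 ± 1.17 CPM in OSE-BPR allografts and 0.0802 ± 0.124 CPM in Ad-BPR allografts, and its call was lost without OSE-BPR replicates 1, 2, 4 or 5, each left out alone.

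**Figure D2:**
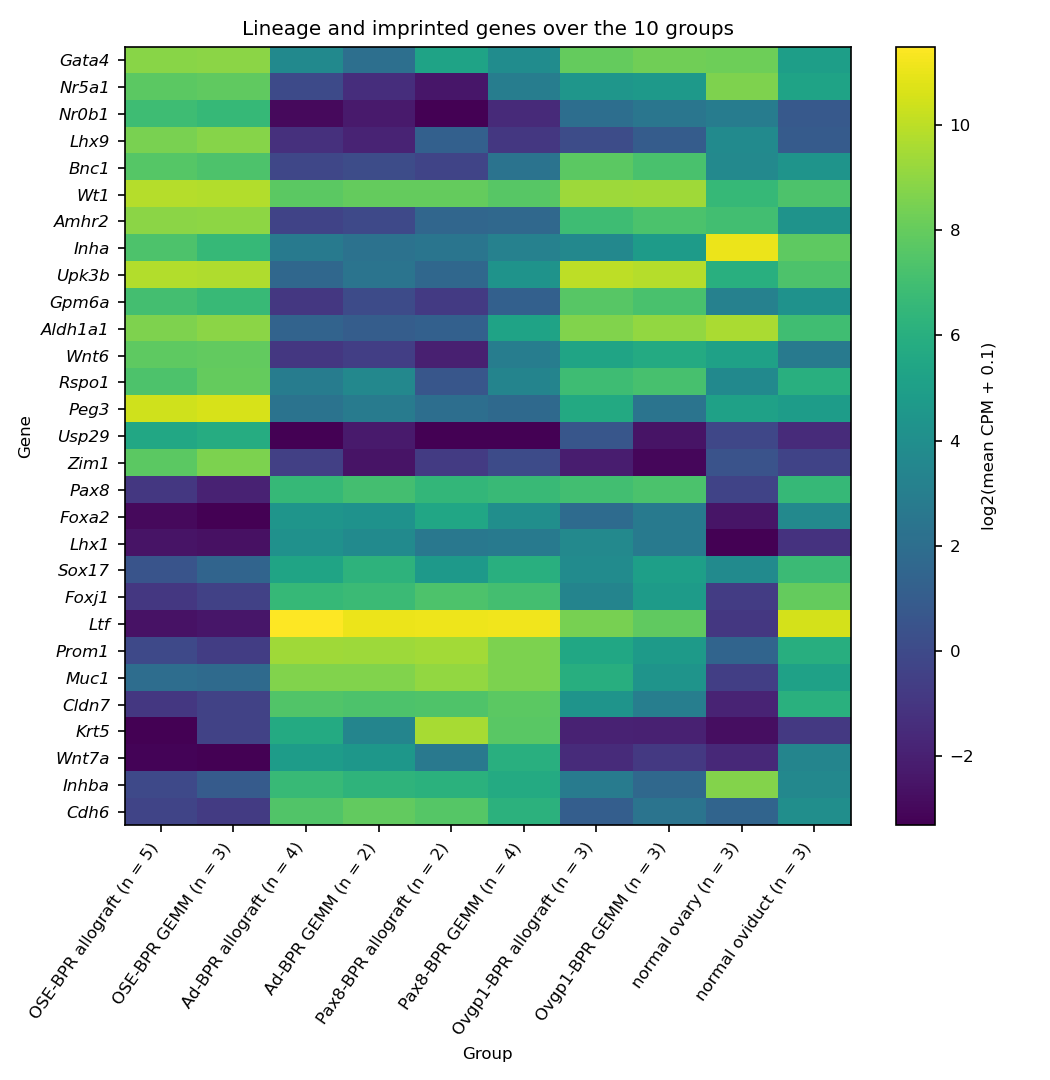
Mean level of lineage and imprinted genes (rows) in the 10 groups of the series (columns, with the number of libraries), as log2(mean CPM + 0.1) in colour. Gata4, Upk3b and Peg3 are high in OSE-BPR and low in Ad-BPR tumours, and Pax8 and Foxj1 are the reverse; Ovgp1-BPR tumours are high for Gata4, Upk3b and Pax8.

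Markers of ovarian surface epithelium and mesothelium were higher in OSE-BPR allografts for 12 of 18 tested members and lower for 1. The median log2 fold change was 2.97, and over all genes 22.1% were higher and 21.8% lower. Upk3b, an uroplakin of mesothelium, stood at 682, 810.2, 1214, 608 and 992 CPM in OSE-BPR allografts, against 6.75, 2.23, 2.75 and 0.335 CPM in Ad-BPR allografts (log2 fold change 8.17 ± 0.78, adjusted p = 5.14e-05). Gpm6a, a membrane glycoprotein of mesothelium, stood at 238, 89.3, 124, 58.7 and 149 CPM in OSE-BPR allografts, against 0.985, 0.293, 0.393 and 0.0558 CPM in Ad-BPR allografts (log2 fold change 8.28 ± 0.72, adjusted p = 3.11e-05). Aldh1a1, an enzyme that makes retinoic acid and marks surface epithelium, stood at 143, 889, 342, 286 and 304 CPM in OSE-BPR allografts, against 4.22, 2.76, 1.97 and 1.17 CPM in Ad-BPR allografts (log2 fold change 7.28 ± 0.69, adjusted p = 4.93e-05). Each of these was at most 6.75 CPM in Ad-BPR libraries, against 58.7 CPM or more in OSE-BPR libraries. Cdh2 (N-cadherin), the cadherin of the ovarian surface, averaged 159.6 ± 40.3 CPM in OSE-BPR allografts and 2.99 ± 2.82 CPM in Ad-BPR allografts (log2 fold change 5.75 ± 0.63, adjusted p = 0.000108). Mesothelin (Msln) was the exception, at 80.8, 10.2, 60.9, 13.7 and 57.7 CPM in OSE-BPR allografts, against 59.2, 146, 209.9 and 375 CPM in Ad-BPR allografts (log2 fold change -2.15 ± 0.67, adjusted p = 0.026), with overlapping libraries. The Msln call was lost without Ad-BPR replicate 4 (adjusted p = 0.075) and in the summed fit (adjusted p = 0.0624), and 2 members were lower without OSE-BPR replicate 1. The summed levels of the list did not overlap (4730 to 6050 CPM in OSE-BPR allografts, against 2460 to 3100 CPM in Ad-BPR allografts).

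Genes of oviduct secretory cells (median log2 fold change -3.70) were lower in OSE-BPR allografts for 7 of 10 tested members and higher for 1. Background shares over all genes were 21.8% lower and 22.1% higher. Ltf, a member near 0 in OSE-BPR allografts, passes the filter on low counts only through Ad-BPR libraries. In the summed fit the counts of this list were 4 and 0, and 2 were higher without OSE-BPR replicate 4, Ad-BPR replicate 2 or Ad-BPR replicate 3. Prom1, which encodes the membrane glycoprotein CD133, stood at 0.339, 1.34, 0.43, 1.73 and 0.438 CPM in OSE-BPR allografts, against 915, 978, 441 and 355 CPM in Ad-BPR allografts (log2 fold change -9.61 ± 0.64, adjusted p = 7.40e-06). Cd24a, a small mucin-like surface protein, stood at 11.9, 5.88, 2.58, 2.82 and 2.57 CPM in OSE-BPR allografts, against 987, 1024, 764 and 370.5 CPM in Ad-BPR allografts (log2 fold change -7.25 ± 0.61, adjusted p = 2.63e-05). Muc1, a membrane mucin of gland surfaces, averaged 3.82 ± 1.65 CPM in OSE-BPR allografts and 409.5 ± 118 CPM in Ad-BPR allografts (log2 fold change -6.74 ± 0.40, adjusted p = 4.46e-06). The 3 genes were low in every OSE-BPR library and high in every Ad-BPR library. Ovgp1 (oviductin), the defining product of oviduct secretory cells, ran against its list at 7.96, 4.01, 12, 14.5 and 8.77 CPM in OSE-BPR allografts, against 3.38, 4.17, 2.75 and 3.58 CPM in Ad-BPR allografts (log2 fold change 1.45 ± 0.38, adjusted p = 0.0123), with overlapping libraries. The call was lost in the summed fit (adjusted p = 0.166) and in a fit of all 26 tumours (adjusted p = 0.165). Both groups were far below normal oviduct, at 6830 ± 3200 CPM. Ciliated-cell genes gave 5 lower, 1 higher and 6 not called of 12 tested, with a median log2 fold change of -0.505. In the summed fit 3 were lower and none higher, and in GEMM tumours 1 was lower. The summed level of the list overlapped, at 308 to 445 CPM in OSE-BPR allografts and 386 to 577 CPM in Ad-BPR allografts. It was 1460 to 2180 CPM in normal oviduct. Foxj1, the master factor of motile cilia, stood at 0.282, 0.642, 0.0614, 0.64 and 0.501 CPM in OSE-BPR allografts, against 43.8, 69.4, 181 and 100.1 CPM in Ad-BPR allografts (log2 fold change -7.83 ± 0.61, adjusted p = 1.74e-05), against 258 ± 67.6 CPM in normal oviduct. Tppp3, a tubulin-binding protein of ciliated cells, averaged 8.79 ± 5.52 CPM in OSE-BPR allografts and 84.2 ± 58 CPM in Ad-BPR allografts (log2 fold change -3.26 ± 0.54, adjusted p = 0.00101). Mcidas, which drives multiciliation, was at 0 in all 9 allografts. Without Ad-BPR replicate 3, the lower members of this list fell to 3.

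Genes of epithelial junctions and simple keratins were lower in OSE-BPR allografts for 24 of 32 tested members, with 1 higher. The median log2 fold change was -2.19, and over all genes 21.8% were lower and 22.1% higher. In the summed fit 14 members were lower, and 2 were higher without OSE-BPR replicate 5 or Ad-BPR replicate 3. Cldn7, a claudin of tight junctions, stood at 0.508, 0.374, 0.184, 0.128 and 0.939 CPM in OSE-BPR allografts, against 130.3, 155, 229 and 206 CPM in Ad-BPR allografts (log2 fold change -8.69 ± 0.48, adjusted p = 3.11e-06). Esrp1, the epithelial splicing regulator, averaged 3.08 ± 2.22 CPM in OSE-BPR allografts and 136 ± 23.7 CPM in Ad-BPR allografts (log2 fold change -5.47 ± 0.50, adjusted p = 4.36e-05). Tjp3 (ZO-3), a tight-junction scaffold, averaged 1.68 ± 0.752 CPM in OSE-BPR allografts and 116 ± 35.5 CPM in Ad-BPR allografts (log2 fold change -6.10 ± 0.38, adjusted p = 5.66e-06). St14 (matriptase), a membrane protease of epithelium, averaged 14.5 ± 9.72 CPM in OSE-BPR allografts and 886 ± 297 CPM in Ad-BPR allografts (log2 fold change -5.93 ± 0.55, adjusted p = 4.27e-05). In these 4 genes the levels of OSE-BPR allografts were a small share of those in Ad-BPR. Cdh1 (E-cadherin) stood at 153, 57.4, 235, 312 and 44 CPM in OSE-BPR allografts, against 883, 972, 1373 and 1087 CPM in Ad-BPR allografts (log2 fold change -2.75 ± 0.54, adjusted p = 0.00252). Epcam, an adhesion molecule used to mark carcinoma cells, stood at 509.6, 391, 722, 518 and 409.8 CPM in OSE-BPR allografts, against 803, 825, 1038 and 805 CPM in Ad-BPR allografts (log2 fold change -0.77 ± 0.21, adjusted p = 0.013). Both were present in each OSE-BPR library but below each Ad-BPR library, and both calls were lost in the summed fit (Cdh1 adjusted p = 0.0652, Epcam adjusted p = 0.156) and in the fit of 26 tumours (adjusted p = 0.0548 and 0.583 in the same order). F11r (JAM-A) was the higher member, at 432, 472, 768, 375 and 603 CPM in OSE-BPR allografts, against 126, 144, 315 and 360.3 CPM in Ad-BPR allografts (log2 fold change 1.17 ± 0.36, adjusted p = 0.0243). Its call was lost in the summed fit (adjusted p = 0.177) and without OSE-BPR replicate 3, Ad-BPR replicate 1 or Ad-BPR replicate 2.

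Basal and squamous genes (median log2 fold change -5.52) gave 11 lower and 1 higher of 14 tested, against 21.8% lower and 22.1% higher over all genes. Members at 0 in OSE-BPR allografts, such as Krt5 and Ivl, pass the filter on low counts only through Ad-BPR libraries. Dsc3, at 0 in Ad-BPR allografts, passes only through OSE-BPR libraries, so the filter partly set these counts. Sfn (stratifin, 14-3-3 sigma) stood at 0.96, 1.28, 0.553, 0.768 and 0.501 CPM in OSE-BPR allografts, against 98.8, 138, 228 and 209.8 CPM in Ad-BPR allografts (log2 fold change -7.67 ± 0.39, adjusted p = 2.07e-06). Ivl (involucrin), a protein of the cornified envelope, stood at 0, 0, 0, 0 and 0 CPM in OSE-BPR allografts, against 23.3, 14.3, 25.6 and 47.9 CPM in Ad-BPR allografts, at least 155-fold lower (adjusted p = 0.000119). Krt5, the basal-layer keratin, stood at 0, 0, 0, 0 and 0 CPM in OSE-BPR allografts, against 3.17, 13.8, 53.7 and 141 CPM in Ad-BPR allografts (adjusted p = 0.003), with replicates 3 and 4 the highest. Dsc3, a desmosomal cadherin, was the higher member, at 7.29, 37.4, 153, 43.7 and 31.3 CPM in OSE-BPR allografts, against 0, 0, 0 and 0 CPM in Ad-BPR allografts, at least 291-fold higher (adjusted p = 0.000973). Mucins gave 4 lower and 1 higher of 6 tested, with 2 higher without Ad-BPR replicate 3. Muc4 and Muc20, near 0 in OSE-BPR allografts, likewise pass the filter only through Ad-BPR libraries. Muc20 averaged 0.166 ± 0.148 CPM in OSE-BPR allografts and 37.4 ± 15.2 CPM in Ad-BPR allografts (log2 fold change -7.75 ± 0.64, adjusted p = 2.41e-05), and the higher member Muc2, a gel-forming mucin, averaged 7.2 ± 4.73 CPM in OSE-BPR allografts and 1.26 ± 0.642 CPM in Ad-BPR allografts (log2 fold change 2.51 ± 0.58, adjusted p = 0.00604).

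Among surface antigens considered as drug targets in ovarian cancer, 9 of 17 tested were lower in OSE-BPR allografts and 2 higher (5 and 1 in the summed fit). Background shares over all genes were 21.8% lower and 22.1% higher. Cdh6, a kidney and Müllerian cadherin, stood at 0.621, 0.642, 0.123, 2.24 and 0 CPM in OSE-BPR allografts, against 149, 184, 168 and 221 CPM in Ad-BPR allografts (log2 fold change -7.96 ± 0.81, adjusted p = 7.07e-05). Cd276 (B7-H3), an immune checkpoint ligand, averaged 40.2 ± 11.7 CPM in OSE-BPR allografts and 224 ± 61.5 CPM in Ad-BPR allografts (log2 fold change -2.48 ± 0.26, adjusted p = 8.41e-05). The groups did not overlap for either gene. Alppl2, a placental-type alkaline phosphatase, was the reverse, at 12.7, 5.56, 1.72, 8.26 and 10.2 CPM in OSE-BPR allografts, against 0.0703, 0, 0 and 0 CPM in Ad-BPR allografts (adjusted p = 0.000146). The other higher member, Lypd1, averaged 1.6 ± 1.37 CPM in OSE-BPR allografts and 0.402 ± 0.285 CPM in Ad-BPR allografts, with overlapping libraries. The count of higher members was 1 without any 1 of OSE-BPR replicates 1, 2 and 3 or Ad-BPR replicate 4, and 4 without Ad-BPR replicate 3. The folate receptor Folr1 (31.9 ± 17.8 against 4.93 ± 5.82 CPM, OSE-BPR against Ad-BPR, adjusted p = 0.0516) and Muc16, the source of CA-125 (80.4 ± 50.7 against 11.4 ± 18.6 CPM, adjusted p = 0.0577), did not pass the test.

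Hox genes set position along the body axis and the reproductive tract. Of 11 Hox A genes 5 were tested, and all 5 were lower in OSE-BPR allografts. Of 10 Hox B genes 8 were tested and 7 were lower, against 21.8% lower over all genes. The summed Hox A level was 0.755 to 1.56 CPM in OSE-BPR allografts, against 34.4 to 129 CPM in Ad-BPR allografts. Genes so low in OSE-BPR pass the filter on low counts through the Ad-BPR libraries, so the filter largely set the Hox A count. Hoxa10, a factor of the uterus, stood at 0, 0.0535, 0.123, 0 and 0.0626 CPM in OSE-BPR allografts, against 54.6, 12.4, 1.97 and 7.54 CPM in Ad-BPR allografts (log2 fold change -8.44 ± 1.16, adjusted p = 0.000365). Hoxa9, a factor of the oviduct in the mouse, stood at 0.0565, 0.0535, 0, 0 and 0.125 CPM in OSE-BPR allografts, against 19.2, 2.99, 2.88 and 3.74 CPM in Ad-BPR allografts (log2 fold change -7.04 ± 0.95, adjusted p = 0.000327). Hoxa3 averaged 0.159 ± 0.129 CPM in OSE-BPR allografts and 30.9 ± 32.4 CPM in Ad-BPR allografts (adjusted p = 0.000765). The Ad-BPR pairs differed in which end of the cluster was high, with Hoxa10 highest in replicate 1 and Hoxa3 and Hoxa5 highest in replicates 3 and 4, and 3 members of the cluster were called in the summed fit. Hoxa5 (log2 fold change -6.82 ± 1.16, adjusted p = 0.00113) was among those lost there (adjusted p = 0.0546). Hoxb2 averaged 0.294 ± 0.076 CPM in OSE-BPR allografts and 12.3 ± 6.42 CPM in Ad-BPR allografts (log2 fold change -5.34 ± 0.44, adjusted p = 2.20e-05). Hoxb4, Hoxb7 and Hoxb8 had log2 fold changes of -4.03 ± 0.54, -4.25 ± 0.64 and -3.67 ± 0.48 (adjusted p = 0.000332, 0.000616 and 0.000283 in that order). In the Hox D cluster 2 of 4 were lower, Hoxd8 with log2 fold change -2.77 ± 0.75, adjusted p = 0.0138 and 0.0854 as adjusted p in the summed fit. The only called member of the Hox C cluster, Hoxc5 (log2 fold change 3.47 ± 1.15, adjusted p = 0.0321), was higher. That call was lost in the summed fit (adjusted p = 0.12) and without OSE-BPR replicates 1 or 4 or any single Ad-BPR library (adjusted p = 0.0514 to 0.0823). In that cluster 3 members were called without OSE-BPR replicate 5. Hoxb1, Hoxd12 and Hoxd13 were at 0 in all 9 allografts.

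In the Wnt pathway, which steers the female reproductive tract and renews surface epithelium, 11 of 31 tested members were higher and 11 lower in OSE-BPR allografts (median log2 fold change 0.20, and 6 and 6 in the summed fit). Over all genes 22.1% were higher and 21.8% lower. Among ligands, Wnt6 stood at 181, 178, 275, 295 and 172 CPM in OSE-BPR allografts, against 0.422, 0.293, 0.197 and 0.838 CPM in Ad-BPR allografts (log2 fold change 8.93 ± 0.45, adjusted p = 2.07e-06). Wnt2b averaged 137 ± 93 CPM in OSE-BPR allografts and 2.24 ± 2.07 CPM in Ad-BPR allografts (log2 fold change 5.93 ± 0.79, adjusted p = 0.000305). Wnt7a, the ligand of oviduct and uterine epithelium, stood at 0, 0, 0, 0 and 0.0626 CPM in OSE-BPR allografts, against 4.43, 18.2, 46.8 and 47.7 CPM in Ad-BPR allografts (adjusted p = 5.40e-05). Wnt7b averaged 10.2 ± 8.13 CPM in OSE-BPR allografts and 237 ± 90.7 CPM in Ad-BPR allografts (log2 fold change -4.54 ± 0.61, adjusted p = 0.000327). The ligands of the models thus differed, with Wnt6 and Wnt2b high in OSE-BPR libraries and Wnt7a and Wnt7b high in Ad-BPR libraries. Rspo1, an R-spondin that amplifies Wnt signals and directs ovarian differentiation, averaged 165 ± 49.3 CPM in OSE-BPR allografts and 7.46 ± 5.24 CPM in Ad-BPR allografts (log2 fold change 4.46 ± 0.63, adjusted p = 0.000429). Tcf7, a transcription factor at the end of the pathway, averaged 70.9 ± 15.4 CPM in OSE-BPR allografts and 9.27 ± 2.02 CPM in Ad-BPR allografts (log2 fold change 2.93 ± 0.25, adjusted p = 2.97e-05). Of the secreted inhibitors, Dkk2 averaged 0.598 ± 0.375 CPM in OSE-BPR allografts and 116 ± 73.5 CPM in Ad-BPR allografts (log2 fold change -7.56 ± 0.69, adjusted p = 4.10e-05). Sfrp2 averaged 4.58 ± 2.09 CPM in OSE-BPR allografts and 113 ± 122 CPM in Ad-BPR allografts (log2 fold change -4.63 ± 0.91, adjusted p = 0.00257), a call lost in the summed fit (adjusted p = 0.0723).

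In the Notch pathway, which signals between neighbouring cells, 9 of 16 tested members were lower in OSE-BPR allografts and none higher. In the summed fit 4 were lower, and over all genes 21.8% were lower and 22.1% higher in the main fit. The receptor Notch3 stood at 13.3, 13.2, 8.72, 11.3 and 12.7 CPM in OSE-BPR allografts, against 102, 119.7, 118 and 170.4 CPM in Ad-BPR allografts (log2 fold change -3.43 ± 0.21, adjusted p = 4.64e-06). The ligand Jag1 averaged 9.56 ± 5.83 CPM in OSE-BPR allografts and 158 ± 86.7 CPM in Ad-BPR allografts (log2 fold change -4.05 ± 0.53, adjusted p = 0.000297), and the endothelial ligand Dll4 averaged 7.22 ± 2.68 CPM in OSE-BPR allografts and 32.6 ± 5.7 CPM in Ad-BPR allografts (log2 fold change -2.17 ± 0.28, adjusted p = 0.000277). Notch4, a mainly endothelial receptor, averaged 9.84 ± 2.8 CPM in OSE-BPR allografts and 23.1 ± 1.61 CPM in Ad-BPR allografts (log2 fold change -1.23 ± 0.24, adjusted p = 0.00236), a call lost in the summed fit (adjusted p = 0.0931). Notch2 did not pass the test (199 ± 49.6 against 194 ± 41.1 CPM, OSE-BPR against Ad-BPR, adjusted p = 0.906).

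Genes that make and sense retinoic acid, a vitamin A derivative, gave 3 higher and 7 lower of 13 tested (1 and 3 in the summed fit). The share of higher members is near the 22.1% over all genes, so that count is no result about this list. Over all genes 21.8% were lower. The synthesizing enzymes differed: Aldh1a1 was higher (above), whereas Aldh1a3 stood at 4.18, 9.15, 4.05, 3.46 and 5.76 CPM in OSE-BPR allografts, against 185, 258, 206 and 196 CPM in Ad-BPR allografts (log2 fold change -5.31 ± 0.31, adjusted p = 4.35e-06). Aldh1a2 was higher (log2 fold change 2.63 ± 0.81, adjusted p = 0.0239), with its call lost without Ad-BPR replicates 2 or 3 (adjusted p = 0.064 and 0.0549) and in the summed fit (adjusted p = 0.12). The receptor Rarg averaged 27.7 ± 8.85 CPM in OSE-BPR allografts and 199.6 ± 21.3 CPM in Ad-BPR allografts (log2 fold change -2.85 ± 0.23, adjusted p = 2.11e-05). Crabp2, which carries retinoic acid to its receptor, was lower (log2 fold change -3.46 ± 0.64, adjusted p = 0.00187). Rdh10, which makes retinal, was lower (log2 fold change -2.69 ± 0.52, adjusted p = 0.00223), with the call lost in the summed fit (adjusted p = 0.0721).

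The TGF-beta family, which includes the activins, inhibins and AMH of the gonads, gave 6 higher and 5 lower of 21 tested (3 and 3 in the summed fit), against 22.1% higher and 21.8% lower over all genes. Amhr2, the receptor of anti-Müllerian hormone and a marker of coelomic and gonadal cells, stood at 527, 662, 399, 354 and 456 CPM in OSE-BPR allografts, against 0.703, 1.06, 0.131 and 0.838 CPM in Ad-BPR allografts (log2 fold change 9.43 ± 0.51, adjusted p = 2.70e-06). Inha, the inhibin alpha subunit, stood at 85.2, 270.1, 122, 20.5 and 324 CPM in OSE-BPR allografts, against 3.52, 4.93, 6.68 and 12.5 CPM in Ad-BPR allografts (log2 fold change 4.57 ± 0.80, adjusted p = 0.00137). Inhba, the activin A subunit, averaged 0.863 ± 0.653 CPM in OSE-BPR allografts and 103 ± 58.8 CPM in Ad-BPR allografts (log2 fold change -6.87 ± 0.61, adjusted p = 3.48e-05). Neither subunit had overlapping libraries. Bmp7 averaged 58.6 ± 16.1 CPM in OSE-BPR allografts and 2.31 ± 2.09 CPM in Ad-BPR allografts (log2 fold change 4.67 ± 0.70, adjusted p = 0.000586). Grem1, a secreted BMP inhibitor, averaged 0.0446 ± 0.0702 CPM in OSE-BPR allografts and 25.8 ± 28.2 CPM in Ad-BPR allografts (log2 fold change -8.89 ± 1.11, adjusted p = 0.00022). Tgfb1 averaged 26.7 ± 6.78 CPM in OSE-BPR allografts and 137 ± 30.2 CPM in Ad-BPR allografts (log2 fold change -2.36 ± 0.23, adjusted p = 6.26e-05). Fstl3, which binds activin, had log2 fold change 1.51 ± 0.40, adjusted p = 0.0125, lost in the summed fit (adjusted p = 0.0919). The 5 lower members became 3 without any 1 of OSE-BPR replicates 1 and 3 or Ad-BPR replicates 1 and 2.

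Growth factors and receptors of the FGF and EGF families and their relatives gave 7 higher and 9 lower of 24 tested (2 and 4 in the summed fit), against 22.1% higher and 21.8% lower over all genes. The FGF ligand Fgf18 averaged 10.8 ± 1.78 CPM in OSE-BPR allografts and 1.16 ± 0.704 CPM in Ad-BPR allografts (log2 fold change 3.21 ± 0.43, adjusted p = 0.000305). Fgf9, which acts in the gonad, averaged 13.8 ± 3.15 CPM in OSE-BPR allografts and 2.49 ± 1.98 CPM in Ad-BPR allografts (log2 fold change 2.46 ± 0.53, adjusted p = 0.0041). Fgf1 averaged 0.514 ± 0.704 CPM in OSE-BPR allografts and 137 ± 144 CPM in Ad-BPR allografts (log2 fold change -8.06 ± 1.25, adjusted p = 0.000728), so that these FGF ligands differed in direction. Kitl, the ligand of the KIT receptor, averaged 63.4 ± 49.8 CPM in OSE-BPR allografts and 14.8 ± 3.73 CPM in Ad-BPR allografts (log2 fold change 2.09 ± 0.50, adjusted p = 0.0072). The EGF receptor Egfr stood at 3.84, 5.83, 5.77, 7.62 and 1.06 CPM in OSE-BPR allografts, against 66, 70.4, 136 and 129 CPM in Ad-BPR allografts (log2 fold change -4.38 ± 0.50, adjusted p = 0.000134). Its ligand Hbegf (log2 fold change -2.83 ± 0.48, adjusted p = 0.0012) and the ERBB3 ligand Nrg1 (log2 fold change -7.12 ± 0.89, adjusted p = 0.000222) were lower as well. The Fgf9 call was lost in the summed fit (adjusted p = 0.0501).

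Interstitial collagens and fibroblast genes (median log2 fold change -3.69) were lower in OSE-BPR allografts for 14 of 18 tested members and higher for none. Background shares over all genes were 21.8% lower and 22.1% higher. Without Ad-BPR replicate 1, 1 member of the list was higher. The summed level of the list was 2340 to 5700 CPM in OSE-BPR allografts, against 11200 to 31700 CPM in Ad-BPR allografts. In bulk tumours, fewer cells of a type and less RNA per cell cannot be told apart. Col1a1, the main chain of type I collagen, stood at 58.4, 209, 15, 32.1 and 154 CPM in OSE-BPR allografts, against 9324, 6783, 3459 and 3603 CPM in Ad-BPR allografts (log2 fold change -5.95 ± 0.81, adjusted p = 0.000354). Postn (periostin), a matrix protein of activated stroma, averaged 4.11 ± 3.87 CPM in OSE-BPR allografts and 453 ± 221 CPM in Ad-BPR allografts (log2 fold change -6.77 ± 0.70, adjusted p = 7.66e-05). Pdgfrb, a receptor of fibroblasts and pericytes, averaged 19.6 ± 5.36 CPM in OSE-BPR allografts and 188 ± 65.7 CPM in Ad-BPR allografts (log2 fold change -3.26 ± 0.31, adjusted p = 4.75e-05). The 3 genes were lower in each OSE-BPR library than in any Ad-BPR library. Thy1 (log2 fold change -5.58 ± 0.60, adjusted p = 9.85e-05) and Col5a1 (log2 fold change -2.62 ± 0.34, adjusted p = 0.00027) were lower as well.

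Genes of the epithelial-mesenchymal transition list were lower for 11 of 18 tested members (5 in the summed fit), against 21.8% lower over all genes. Cdh2, described above, was higher, with 2 higher members without Ad-BPR replicate 1. Fn1 (fibronectin) stood at 280.2, 623, 195, 139.6 and 808 CPM in OSE-BPR allografts, against 5678, 4041, 5736 and 6441 CPM in Ad-BPR allografts (log2 fold change -3.74 ± 0.52, adjusted p = 0.000395). Itgb3, an integrin subunit, averaged 11.4 ± 3.45 CPM in OSE-BPR allografts and 249 ± 45.8 CPM in Ad-BPR allografts (log2 fold change -4.45 ± 0.26, adjusted p = 4.10e-06). Tgfbi, a matrix protein induced by TGF-beta, averaged 27.5 ± 20.6 CPM in OSE-BPR allografts and 359 ± 185 CPM in Ad-BPR allografts (log2 fold change -3.70 ± 0.56, adjusted p = 0.00062). Vim (vimentin), which both tumour cells and stroma express, did not pass the test (398 ± 249 against 375 ± 126 CPM, OSE-BPR against Ad-BPR, adjusted p = 0.888). The fibroblast list moved with this list, and its part in these differences was not tested.

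Matrix proteases and their inhibitors gave 16 lower and 3 higher of 22 tested, against 21.8% lower and 22.1% higher over all genes. The fibroblast list (14 of 18 lower) and the macrophage list (15 of 18 lower) moved with this list, and their part in it was not tested. Mmp14, the membrane-bound collagenase, stood at 87.3, 102, 126, 93.4 and 124 CPM in OSE-BPR allografts, against 712, 672, 719.5 and 792 CPM in Ad-BPR allografts (log2 fold change -2.76 ± 0.16, adjusted p = 4.45e-06). Mmp13, a secreted collagenase, averaged 0.219 ± 0.141 CPM in OSE-BPR allografts and 226 ± 258 CPM in Ad-BPR allografts (log2 fold change -9.99 ± 1.02, adjusted p = 7.16e-05). Mmp3, or stromelysin, was also lower (log2 fold change -8.78 ± 0.94, adjusted p = 9.85e-05), and Adamts1, a protease of ovulation and matrix turnover, averaged 13.3 ± 6.97 CPM in OSE-BPR allografts and 324 ± 82.4 CPM in Ad-BPR allografts (log2 fold change -4.60 ± 0.38, adjusted p = 2.45e-05). The 3 higher members, Adamts9 (log2 fold change 2.25 ± 0.51, adjusted p = 0.00561), Timp3 (log2 fold change 0.80 ± 0.23, adjusted p = 0.016) and Mmp15 (log2 fold change 0.96 ± 0.32, adjusted p = 0.0334), were all lost in the summed fit (adjusted p = 0.0558, 0.115 and 0.121 in that order). The Timp3 call was also lost without Ad-BPR replicate 3 (adjusted p = 0.0543), and the Mmp15 call without OSE-BPR replicates 1, 3 or 4 or Ad-BPR replicates 2 or 4 (adjusted p = 0.0515 to 0.0953).

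Basement membrane genes gave 4 higher and 4 lower of 19 tested, which is near the 22.1% higher and 21.8% lower over all genes, with a median log2 fold change of 0.09. The type IV collagen chain Col4a6 stood at 80.5, 66.4, 131, 153 and 71.8 CPM in OSE-BPR allografts, against 1.41, 0.998, 0.852 and 0.447 CPM in Ad-BPR allografts (log2 fold change 6.77 ± 0.45, adjusted p = 7.40e-06). Col4a5, which lies beside it on chromosome X, averaged 157 ± 11.9 CPM in OSE-BPR allografts and 18.8 ± 13 CPM in Ad-BPR allografts (log2 fold change 3.06 ± 0.46, adjusted p = 0.000576). Nid2, or nidogen-2 (log2 fold change 2.60 ± 0.52, adjusted p = 0.00297), and Col4a4 (log2 fold change 3.87 ± 1.05, adjusted p = 0.0137) were also higher. Chains of the laminin that lies under stratified epithelium were among the lower members. Lama3 stood at 7.91, 27.6, 17.1, 12.2 and 30.2 CPM in OSE-BPR allografts, against 187, 244, 486 and 455 CPM in Ad-BPR allografts (log2 fold change -4.17 ± 0.46, adjusted p = 0.000115). Lamb3 averaged 16.3 ± 9.36 CPM in OSE-BPR allografts and 156 ± 54.2 CPM in Ad-BPR allografts (log2 fold change -3.27 ± 0.45, adjusted p = 0.000387). Lamb1 (log2 fold change -1.13 ± 0.31, adjusted p = 0.0155) was lost in the summed fit (adjusted p = 0.137).

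**Figure D3:**
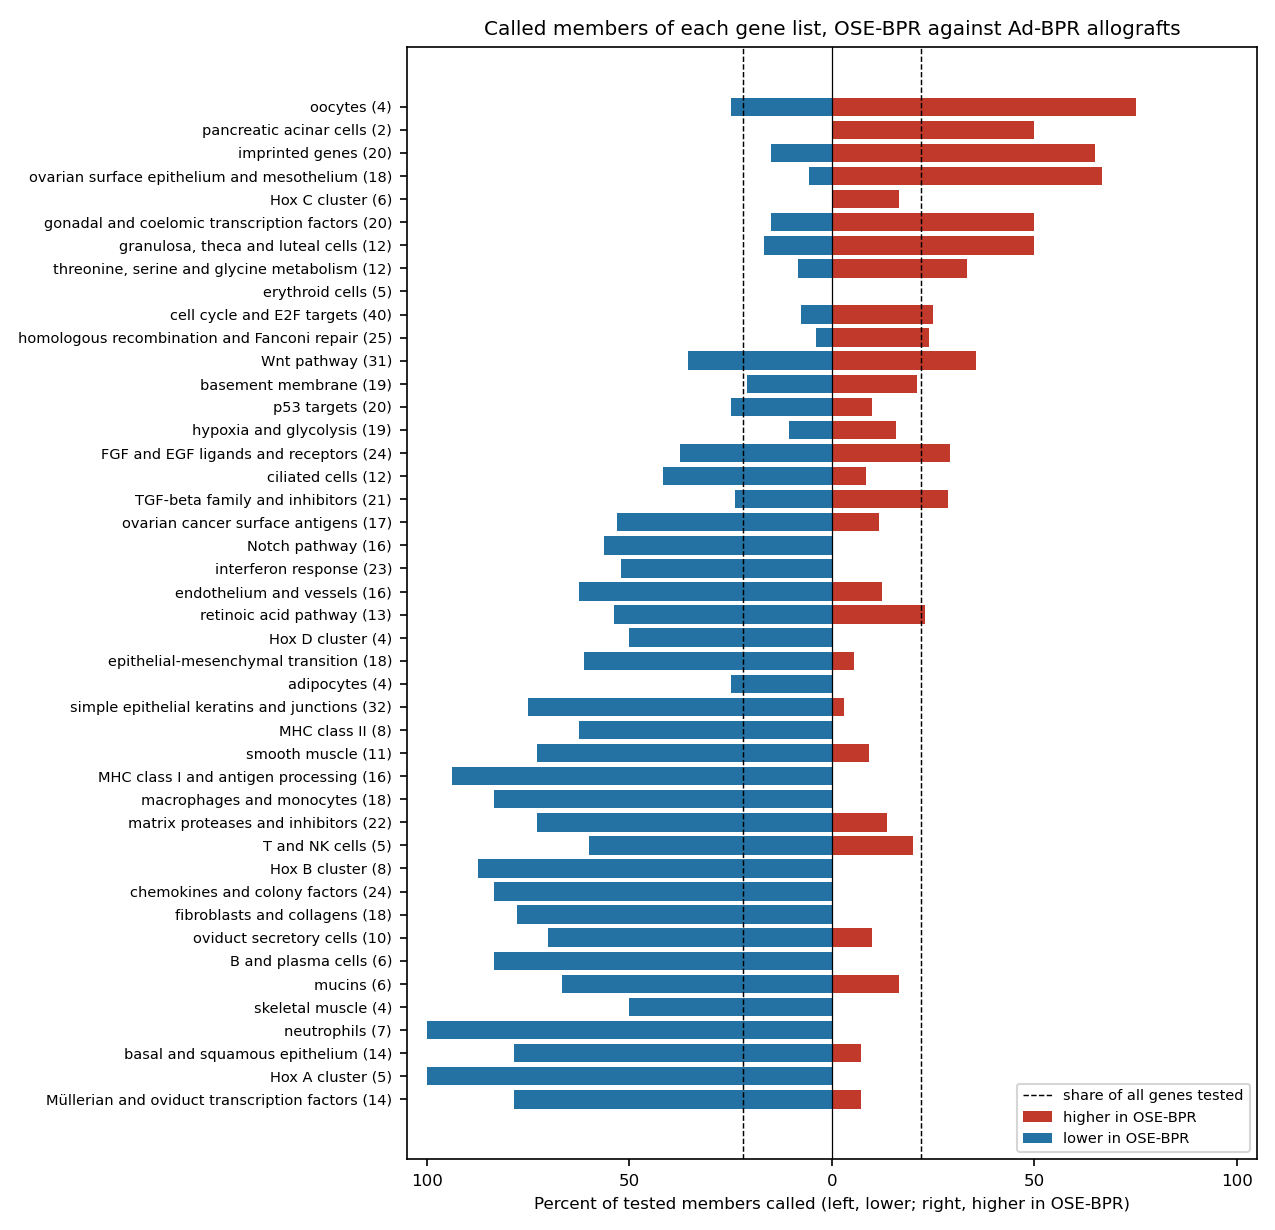
Called genes in each list, with the share higher in OSE-BPR allografts to the right and the share lower to the left of 0, in percent of the members tested. Lists of immune cells, matrix and epithelial junctions lie mostly on the lower side, and imprinted genes and surface epithelium mostly on the higher side; over all 16390 genes 22.1% were higher and 21.8% lower.

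Immune-cell genes were lower in OSE-BPR allografts across most lists. Macrophage and monocyte genes gave 15 lower and none higher of 18 tested, with summed levels of 285 to 537 CPM in OSE-BPR allografts, against 2600 to 5910 CPM in Ad-BPR allografts. C1qa, a complement subunit made by tissue macrophages, stood at 27.1, 40, 27.9, 19.7 and 32.5 CPM in OSE-BPR allografts, against 153, 253, 154 and 165 CPM in Ad-BPR allografts (log2 fold change -2.62 ± 0.24, adjusted p = 4.12e-05). C1qb (log2 fold change -2.67 ± 0.22, adjusted p = 2.18e-05) and C1qc (log2 fold change -2.39 ± 0.23, adjusted p = 5.68e-05) moved with it. Spp1 (osteopontin), which tumour cells and macrophages can make, averaged 23.8 ± 12.6 CPM in OSE-BPR allografts and 1424 ± 496 CPM in Ad-BPR allografts (log2 fold change -5.91 ± 0.47, adjusted p = 1.87e-05). Each of these 4 genes was below all Ad-BPR libraries in every OSE-BPR library. Of 12 listed neutrophil genes 7 were tested, and all 7 were lower, against 21.8% lower over all genes. The summed level of the list was 4.53 to 8.14 CPM in OSE-BPR allografts, against 77.9 to 370 CPM in Ad-BPR allografts. Members near 0 in OSE-BPR allografts, such as Il1b, pass the filter on low counts only through Ad-BPR libraries, so the filter partly set that count. Il1b, an inflammatory cytokine, averaged 0.297 ± 0.269 CPM in OSE-BPR allografts and 20.5 ± 6.19 CPM in Ad-BPR allografts (log2 fold change -6.05 ± 0.59, adjusted p = 5.94e-05), and the growth-factor receptor Csf3r averaged 1.91 ± 0.959 CPM in OSE-BPR allografts and 17.2 ± 6.76 CPM in Ad-BPR allografts (log2 fold change -3.16 ± 0.42, adjusted p = 0.000306).

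Chemokines and colony-stimulating factors gave 20 lower and none higher of 24 tested, against 21.8% lower and 22.1% higher over all genes. Their summed levels were 154 to 225 CPM in OSE-BPR allografts, against 989 to 1540 CPM in Ad-BPR allografts. Cxcl16, a membrane chemokine, stood at 36, 34.1, 44.2, 44.5 and 52.9 CPM in OSE-BPR allografts, against 221, 354, 304 and 379.7 CPM in Ad-BPR allografts (log2 fold change -2.89 ± 0.21, adjusted p = 1.08e-05). Cx3cl1 (fractalkine) averaged 26.9 ± 14.4 CPM in OSE-BPR allografts and 322 ± 99.1 CPM in Ad-BPR allografts (log2 fold change -3.58 ± 0.41, adjusted p = 0.000135). Cxcl5, which draws neutrophils, averaged 0.341 ± 0.193 CPM in OSE-BPR allografts and 20 ± 13.9 CPM in Ad-BPR allografts (log2 fold change -5.84 ± 0.64, adjusted p = 0.000107). Ccl9, which draws myeloid cells, averaged 3.48 ± 1.76 CPM in OSE-BPR allografts and 52.9 ± 26.6 CPM in Ad-BPR allografts (log2 fold change -3.92 ± 0.46, adjusted p = 0.00016). The summed level of T and NK cell genes was 1.83 to 78 CPM in OSE-BPR allografts, against 10.9 to 47.5 CPM in Ad-BPR allografts. It was 30.9 to 46.7 CPM in normal ovary. Of 22 listed genes 5 were tested. Pdcd1 (PD-1) ran against the 3 called lower members and made up most of the summed level in OSE-BPR replicate 1, at 74.8, 10.7, 0.0614, 6.4 and 11.9 CPM in OSE-BPR allografts, against 0.492, 0.235, 1.97 and 1.06 CPM in Ad-BPR allografts (log2 fold change 4.46 ± 1.40, adjusted p = 0.0264). Its call was lost without OSE-BPR replicate 1 or Ad-BPR replicates 1, 2 or 4 (adjusted p = 0.058 to 0.0676), and the libraries overlapped. Without OSE-BPR replicate 2, 2 genes of this list were higher. Genes of B and plasma cells were lower for 5 of 6 tested, and for 2 in the summed fit and 3 without Ad-BPR replicate 1.

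Genes of MHC class I and antigen processing were lower in OSE-BPR allografts for 15 of 16 tested members (9 in the summed fit), against 21.8% over all genes. Their summed levels were 1140 to 1450 CPM in OSE-BPR allografts, against 2540 to 14900 CPM in Ad-BPR allografts. H2-K1, a classical class I heavy chain, stood at 146, 150.2, 145, 183 and 131 CPM in OSE-BPR allografts, against 521, 1168, 3550 and 1072 CPM in Ad-BPR allografts (log2 fold change -3.38 ± 0.48, adjusted p = 0.00043). B2m, the class I light chain, stood at 122, 179, 166, 211 and 276 CPM in OSE-BPR allografts, against 496, 979, 2454 and 867 CPM in Ad-BPR allografts (log2 fold change -2.65 ± 0.44, adjusted p = 0.000963). Psmb8, a subunit of the immunoproteasome, averaged 12.3 ± 4.25 CPM in OSE-BPR allografts and 151 ± 121 CPM in Ad-BPR allografts (log2 fold change -3.62 ± 0.49, adjusted p = 0.000318). H2-T23, a nonclassical class I gene, averaged 4.85 ± 3.17 CPM in OSE-BPR allografts and 111 ± 80.9 CPM in Ad-BPR allografts (log2 fold change -4.51 ± 0.59, adjusted p = 0.000287). Ad-BPR replicate 3 was the highest library for all 4 genes. The class I heavy chains are near-identical copies of each other, and FVB and C57Bl/6 carry different H2 haplotypes while the reference is of C57BL/6 origin, so these values are uncertain, and the part of read assignment in them was not tested. B2m and Psmb8 are not class I heavy chains, but read assignment was not tested for them either, nor for the class II genes below. Class II genes gave 5 lower of 8 tested (1 in the summed fit), among them H2-Eb1 at 1.27 ± 1.24 CPM in OSE-BPR allografts and 125 ± 89 CPM in Ad-BPR allografts (log2 fold change -6.59 ± 0.92, adjusted p = 0.000395) and H2-Aa with log2 fold change -3.48 ± 0.79, adjusted p = 0.00562, lost in the summed fit (adjusted p = 0.0755). The macrophage list moved with both MHC lists, and its part in them was not tested.

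Interferon-response genes were lower for 12 of 23 tested members, against 21.8% lower over all genes. Oasl1 stood at 17.1, 12.2, 15, 16.7 and 7.39 CPM in OSE-BPR allografts, against 61.8, 64.4, 100 and 60.2 CPM in Ad-BPR allografts (log2 fold change -2.39 ± 0.27, adjusted p = 0.000139). Oas2 averaged 1.7 ± 1.33 CPM in OSE-BPR allografts and 36.7 ± 28.8 CPM in Ad-BPR allografts (log2 fold change -4.43 ± 0.69, adjusted p = 0.00076). Oas3 (log2 fold change -5.59 ± 0.86, adjusted p = 0.000694) and Mx1 (log2 fold change -3.64 ± 0.61, adjusted p = 0.00104) were lower as well. These are antiviral effectors induced by interferon. Ad-BPR replicate 3 held the highest summed level of the list, at 2560 CPM against 623 to 825 CPM in the other Ad-BPR libraries and 545 to 976 CPM in OSE-BPR libraries. Without that replicate, 4 members were called higher in OSE-BPR allografts, where none was with it.

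**Figure D4:**
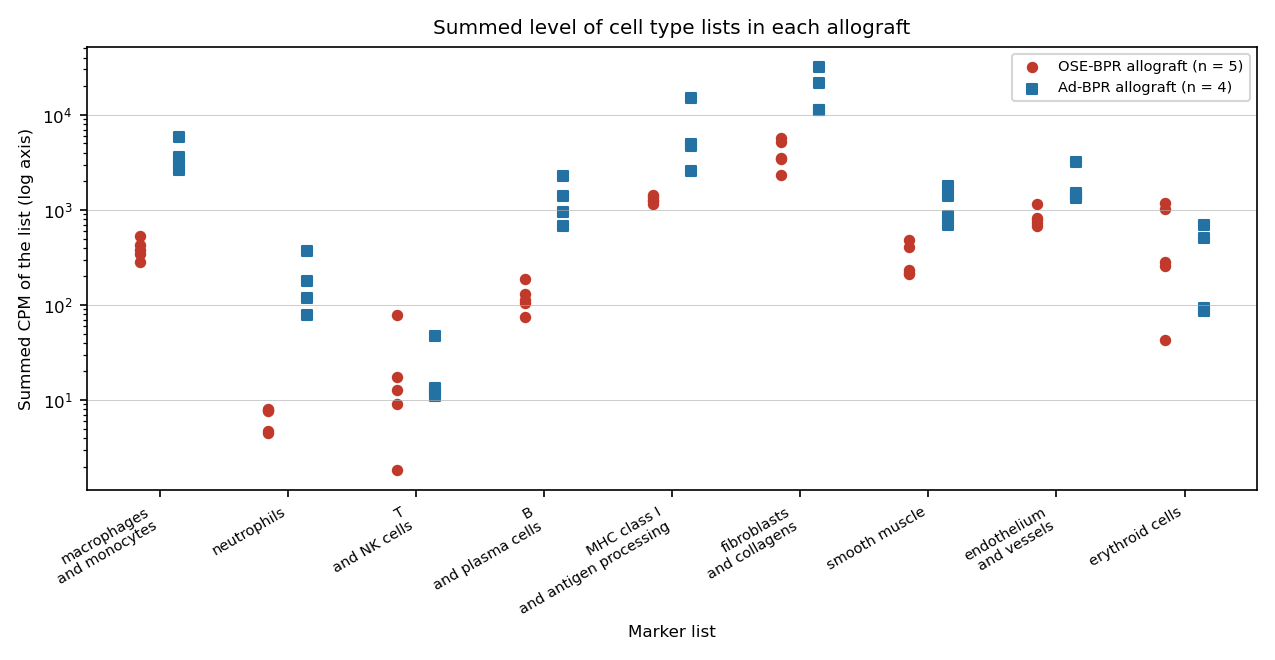
Summed CPM of the marker lists of other cell types in each allograft, on a log axis, with OSE-BPR allografts left of Ad-BPR allografts. Macrophage markers sum to 285 to 537 CPM in OSE-BPR and 2600 to 5910 CPM in Ad-BPR, and neutrophil markers to 4.53 to 8.14 CPM in OSE-BPR and 77.9 to 370 CPM in Ad-BPR.

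Endothelial and vessel genes gave 10 lower and 2 higher of 16 tested, against 21.8% lower and 22.1% higher over all genes. Flt1 (VEGF receptor 1), which endothelial and some epithelial cells express, stood at 16, 18.2, 13, 19.9 and 14.1 CPM in OSE-BPR allografts, against 264, 346, 535 and 251 CPM in Ad-BPR allografts (log2 fold change -4.42 ± 0.27, adjusted p = 4.77e-06). Vwf (von Willebrand factor) averaged 2.41 ± 1.21 CPM in OSE-BPR allografts and 91.8 ± 47.8 CPM in Ad-BPR allografts (log2 fold change -5.25 ± 0.50, adjusted p = 4.93e-05). Cdh5 (VE-cadherin), a defining endothelial adhesion gene, stood at 16.6, 23, 11.4, 20.9 and 15.6 CPM in OSE-BPR allografts, against 62.9, 63.9, 61 and 43.2 CPM in Ad-BPR allografts (log2 fold change -1.72 ± 0.23, adjusted p = 0.00031), and the co-receptor Eng averaged 15.6 ± 7.03 CPM in OSE-BPR allografts and 72.1 ± 15.1 CPM in Ad-BPR allografts (log2 fold change -2.21 ± 0.30, adjusted p = 0.000331). Kdr (VEGF receptor 2) ran the other way, at 92.4 ± 19.9 CPM in OSE-BPR allografts and 20.2 ± 7.91 CPM in Ad-BPR allografts (log2 fold change 2.19 ± 0.28, adjusted p = 0.000247), as did the junction gene Esam (log2 fold change 1.65 ± 0.24, adjusted p = 0.000439). Pecam1, another defining endothelial gene, did not pass the test (28.2 ± 12.4 against 45 ± 8.73 CPM, OSE-BPR against Ad-BPR, adjusted p = 0.0833). Smooth muscle genes gave 8 lower and 1 higher of 11 tested (2 and 0 in the summed fit, and none higher without Ad-BPR replicate 3), among them gamma smooth muscle actin, Actg2 (log2 fold change -5.77 ± 0.99, adjusted p = 0.0012), and transgelin, Tagln (log2 fold change -2.34 ± 0.46, adjusted p = 0.00267). Acta2 (alpha smooth muscle actin, also of myofibroblasts) averaged 89.6 ± 39.9 CPM in OSE-BPR allografts and 461 ± 293 CPM in Ad-BPR allografts (log2 fold change -2.36 ± 0.48, adjusted p = 0.00296), and that call and the one of Smtn were lost in the summed fit (adjusted p = 0.0835 and 0.0527).

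Genes of ovarian endocrine cells gave 6 higher and 2 lower of 12 tested, against 22.1% higher and 21.8% lower over all genes. The lower share is near that over all genes. Of its members described above, Inha was higher and Inhba lower. Scarb1, the receptor that imports HDL cholesterol for steroid synthesis, stood at 199.9, 297, 205, 197 and 211 CPM in OSE-BPR allografts, against 57.1, 56, 72.2 and 67.7 CPM in Ad-BPR allografts (log2 fold change 1.81 ± 0.18, adjusted p = 5.92e-05). Nr5a2, a nuclear receptor of granulosa cells, averaged 8.45 ± 1.47 CPM in OSE-BPR allografts and 0.689 ± 0.399 CPM in Ad-BPR allografts (log2 fold change 3.59 ± 0.48, adjusted p = 0.000312). The summed level of the list was 282 to 792 CPM in OSE-BPR allografts, against 177 to 272 CPM in Ad-BPR allografts. It was at least 18900 CPM in normal ovary. Without OSE-BPR replicate 2, the highest for Scarb1, 3 members were called higher. Of 14 oocyte genes, 4 passed the filter on low counts, and 3 of these were higher and 1 lower. Each was near 0 CPM in 1 of the models, so the filter largely set these counts. Ooep, a maternal-effect gene of the oocyte cortex, stood at 76.6, 3.37, 26.5, 11.1 and 11.2 CPM in OSE-BPR allografts, against 0, 0.0587, 0.0655 and 0 CPM in Ad-BPR allografts (adjusted p = 0.00038). Gdf9, an oocyte growth factor, averaged 5.46 ± 4.49 CPM in OSE-BPR allografts and 0.333 ± 0.208 CPM in Ad-BPR allografts (log2 fold change 3.99 ± 0.92, adjusted p = 0.0061), lost in the summed fit (adjusted p = 0.104). Padi6, an enzyme of the egg cytoplasm, averaged 2.35 ± 1.05 CPM in OSE-BPR allografts and 0.0984 ± 0.16 CPM in Ad-BPR allografts (adjusted p = 0.00248). The lower member, the histone chaperone Npm2, stood at 0, 0.107, 0.123, 0.512 and 0.188 CPM in OSE-BPR allografts, against 2.46, 1.76, 0.983 and 0.95 CPM in Ad-BPR allografts (log2 fold change -3.02 ± 0.72, adjusted p = 0.00739). Pnlip (pancreatic lipase) stood at 25.1, 9.68, 11.4, 5.38 and 2.75 CPM in OSE-BPR allografts, against 0, 0, 0.0655 and 0.0558 CPM in Ad-BPR allografts (adjusted p = 0.000184). Cpb1, which pancreatic acinar cells also make, was at 0 in all 9 allografts, as was the oocyte factor Figla. Skeletal muscle genes gave 2 lower of 4 tested, and 1 without OSE-BPR replicate 1. Their summed level was 1.83 to 5.4 CPM in OSE-BPR allografts, against 6.21 to 647 CPM in Ad-BPR allografts, the highest in Ad-BPR replicate 1. Adipocyte genes gave 1 lower of 4 tested, and 3 without OSE-BPR replicate 2. With 1 of 4 near the 21.8% lower over all genes, the adipocyte count is no result about that list. Both lists held 10 genes, most of which did not pass the filter. No erythroid gene was called by edgeR (0 of 5 tested), and 1 was by DESeq2.

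Cell-cycle and E2F target genes gave 10 higher and 3 lower of 40 tested, with a median log2 fold change of 0.30. The share of higher members is near the 22.1% over all genes, so the count is no result about this list. The summed fit gave 2 and 0, and limma on TPM gave 18 higher. In GEMM tumours 1 member was higher and none lower. The 3 lower members became 5 without OSE-BPR replicate 5 and 1 without Ad-BPR replicate 3. Mki67, a proliferation marker, stood at 596, 452, 725, 484 and 619.8 CPM in OSE-BPR allografts, against 305, 342, 343 and 318 CPM in Ad-BPR allografts (log2 fold change 0.82 ± 0.17, adjusted p = 0.00384). Ccna2 (cyclin A2) averaged 277 ± 65.2 CPM in OSE-BPR allografts and 120.1 ± 8.88 CPM in Ad-BPR allografts (log2 fold change 1.21 ± 0.20, adjusted p = 0.00112) and Foxm1, a mitotic transcription factor, averaged 159 ± 43.9 CPM in OSE-BPR allografts and 75.5 ± 5.68 CPM in Ad-BPR allografts (log2 fold change 1.07 ± 0.21, adjusted p = 0.00244). Cdkn1b (p27), an inhibitor of cyclin-dependent kinases, averaged 332 ± 78.9 CPM in OSE-BPR allografts and 114 ± 18.6 CPM in Ad-BPR allografts (log2 fold change 1.54 ± 0.20, adjusted p = 0.000305). The lower members were inhibitors of cyclin-dependent kinases, Cdkn2b (p15; log2 fold change -1.45 ± 0.35, adjusted p = 0.00819) and Cdkn1a (p21; log2 fold change -1.82 ± 0.54, adjusted p = 0.0204), and the cyclin Ccnd1 (log2 fold change -1.40 ± 0.45, adjusted p = 0.0294). The calls of Mki67, Ccna2, Cdkn2b, Cdkn1a and Ccnd1 were lost in the summed fit (adjusted p = 0.116, 0.0578, 0.0789, 0.139 and 0.191 in that order). That of Cdkn1a was lost without Ad-BPR replicate 3 (adjusted p = 0.0513), and that of Ccnd1 without OSE-BPR replicates 1 or 3 or Ad-BPR replicates 2 or 3 (adjusted p = 0.0547 to 0.0693). Homologous recombination and Fanconi repair genes gave 6 higher and 1 lower of 25, and none of either in the summed fit, with 2 lower without OSE-BPR replicate 1. The higher share is again near the 22.1% over all genes. Among the higher members, Blm, a helicase, averaged 48.4 ± 12.8 CPM in OSE-BPR allografts and 21 ± 7.49 CPM in Ad-BPR allografts (log2 fold change 1.20 ± 0.28, adjusted p = 0.006, and 0.0893 as adjusted p in the summed fit). The lower member was Fancc, a subunit of the Fanconi core complex, at 8.52 ± 1.78 CPM in OSE-BPR allografts and 23.7 ± 5.91 CPM in Ad-BPR allografts (log2 fold change -1.47 ± 0.25, adjusted p = 0.00112, and 0.0627 as adjusted p in the summed fit). Fancd2, Rad52 and Rad54b had log2 fold changes of 1.28 ± 0.31, 1.02 ± 0.24 and 0.82 ± 0.21 (adjusted p = 0.00732, 0.00748 and 0.00948 in that order), all lost in the summed fit.

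Targets of p53 gave 2 higher and 5 lower of 20 tested, with the lower share near the 21.8% over all genes and the higher share below the 22.1% over all genes. Phlda3, an inhibitor of AKT, stood at 2.71, 3.69, 5.71, 7.75 and 5.13 CPM in OSE-BPR allografts, against 25.2, 16.4, 35 and 46.8 CPM in Ad-BPR allografts (log2 fold change -2.63 ± 0.38, adjusted p = 0.000515). Plk2 averaged 10.9 ± 4.1 CPM in OSE-BPR allografts and 49.4 ± 13.1 CPM in Ad-BPR allografts (log2 fold change -2.19 ± 0.32, adjusted p = 0.00054). Perp, a desmosomal gene, averaged 11.4 ± 9.92 CPM in OSE-BPR allografts and 97.5 ± 23.2 CPM in Ad-BPR allografts (log2 fold change -3.10 ± 0.61, adjusted p = 0.00267). Sesn1 (sestrin 1) was higher, at 68.8 ± 15.1 CPM in OSE-BPR allografts and 20.6 ± 5.87 CPM in Ad-BPR allografts (log2 fold change 1.74 ± 0.25, adjusted p = 0.000437). Zmat3 (log2 fold change -1.02 ± 0.20, adjusted p = 0.00259) and Btg2 (log2 fold change 1.10 ± 0.28, adjusted p = 0.01) were called in opposite directions, and both were lost in the summed fit (adjusted p = 0.0882 and 0.137).

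Genes of threonine, serine and glycine metabolism gave 4 higher and 1 lower of 12 tested, and 7 higher with limma on TPM. Over all genes 22.1% were higher and 21.8% lower. Phgdh, the first enzyme of serine synthesis, averaged 295 ± 81.6 CPM in OSE-BPR allografts and 61 ± 6.66 CPM in Ad-BPR allografts (log2 fold change 2.27 ± 0.22, adjusted p = 5.50e-05). Psat1, the next enzyme, averaged 158 ± 80.7 CPM in OSE-BPR allografts and 41.2 ± 12.9 CPM in Ad-BPR allografts (log2 fold change 1.94 ± 0.36, adjusted p = 0.00204). Gcat, which acts after Tdh, had log2 fold change 0.96 ± 0.35, adjusted p = 0.0468, a call lost in the summed fit and without any single library except OSE-BPR replicate 2 (adjusted p = 0.0591 to 0.123). The transporter Slc1a4 was lower (log2 fold change -1.62 ± 0.38, adjusted p = 0.00643), lost in the summed fit (adjusted p = 0.0688). Hypoxia and glycolysis genes gave 3 higher and 2 lower of 19 gene entries tested for 18 listed symbols. Both shares were below those over all genes, and the counts were 1 and 0 in the summed fit. The lower members were 1 without any 1 of OSE-BPR replicates 1, 2 and 3 or Ad-BPR replicate 2, and 5 without OSE-BPR replicate 5. Slc2a3 (the glucose transporter GLUT3) averaged 42.3 ± 32.7 CPM in OSE-BPR allografts and 7.52 ± 3.02 CPM in Ad-BPR allografts (log2 fold change 2.49 ± 0.58, adjusted p = 0.00619). Aldoa (log2 fold change 0.93 ± 0.19, adjusted p = 0.00349) and Pdk1 (log2 fold change 0.80 ± 0.20, adjusted p = 0.00859) were higher, and Hk1 (log2 fold change -0.94 ± 0.21, adjusted p = 0.00517) and Pkm (log2 fold change -0.67 ± 0.22, adjusted p = 0.0319) lower, each lost in the summed fit (adjusted p = 0.122, 0.0981, 0.068 and 0.221 in that order). The Pkm call was also lost without any 1 of OSE-BPR replicates 1, 2 and 3 or Ad-BPR replicates 1, 2 and 3 (adjusted p = 0.051 to 0.0754) and with limma on TPM (adjusted p = 0.101).

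The same contrast was made between GEMM tumours, OSE-BPR (3 libraries) against Ad-BPR (2 libraries), in a fit of all 14 libraries of both models. It called 4510 of 18714 genes (24.1%), and 2448 without Ad-BPR GEMM tumour 1 or 1879 without Ad-BPR GEMM tumour 2. Of the 7208 genes called in allografts, 3825 (53.1%) were called in GEMM tumours in the same direction, none in the opposite one, and 7132 had the same sign. Fold changes in the comparisons had a Pearson correlation of 0.956 over these genes, which is given as a description, and whether these allografts came from these GEMM tumours is not given. OSE-BPR allografts 1, 3 and 4 had their highest correlation with OSE-BPR GEMM tumour 2 (0.967 to 0.989), and allografts 2 and 5 with GEMM tumour 1 (0.961 to 0.973). Likewise Ad-BPR allografts 1 and 2 came closest to Ad-BPR GEMM tumour 2 (0.978 and 0.979), and Ad-BPR allografts 3 and 4 to GEMM tumour 1 (0.957 to 0.959). Gata4 had a GEMM log2 fold change of 6.86 ± 0.57 (adjusted p = 1.88e-05), Upk3b of 7.36 ± 1.17 (adjusted p = 0.00109), Peg3 of 7.70 ± 1.16 (adjusted p = 0.000794) and Pax8 of -9.61 ± 1.88 (adjusted p = 0.00375). Krt5 (-4.03 ± 1.99, adjusted p = 0.168) and Igf2 (5.71 ± 2.19, adjusted p = 0.0746) were not called there. Of the 16390 genes tested in allografts, 2093 were called lower in GEMM tumours, against 3579 in allografts. MHC class I genes were called lower for 2 of 16 in GEMM tumours, against 15 of 16 in allografts. The GEMM share is near that over all genes, so that count is no result about this list. None of these genes was called in the test of the difference. That test of allografts against GEMM tumours, an interaction term in the same fit, called 0 of 18714 genes (0%), with 376 at an unadjusted p below 0.05, 5 calls by DESeq2 and 1 by limma on TPM. In simulated data with these sample sizes that test called 44% of genes made 4-fold different and 2% of those made 2-fold different.

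**Figure D5:**
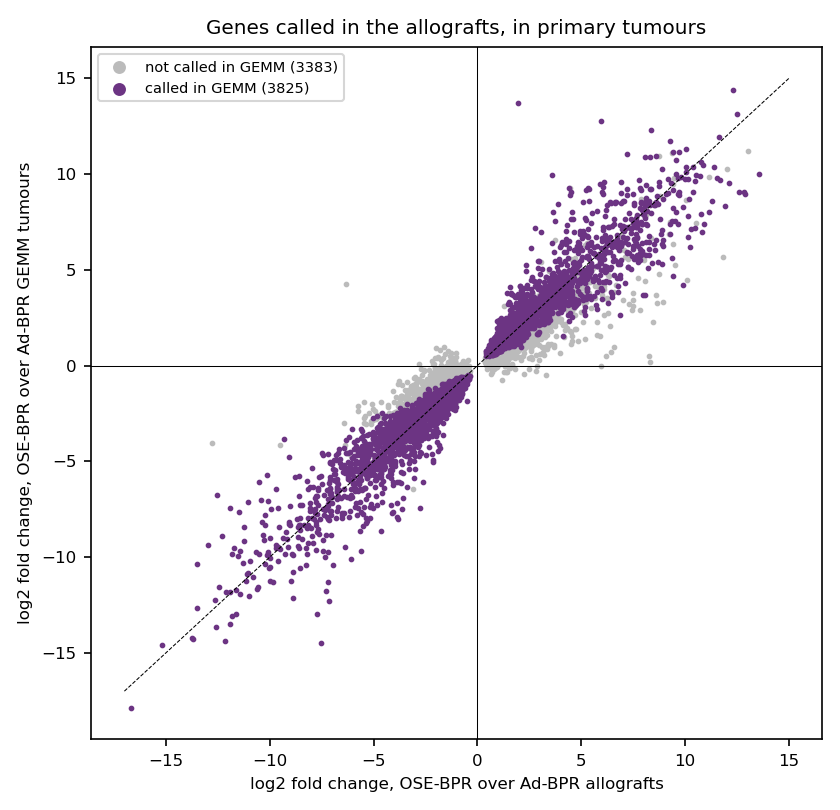
Log2 fold change, OSE-BPR over Ad-BPR, in allografts (horizontal axis) and in GEMM tumours (vertical axis) for the 7208 genes called in allografts. Colour marks the 3825 genes also called in GEMM tumours, and the dashed line is equality; 7132 genes lie in the quadrants of equal sign.

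Strain was examined by level alone, since each model is on 1 strain. For 309 of the 7208 called genes (4.29%), all 8 OSE-BPR libraries, allograft and GEMM, lay outside the range of all 24 C57Bl/6 libraries, 200 of them above and 109 below. The other 6899 genes (95.7%) overlapped at least 1 C57Bl/6 library. Genes that were not called were not counted, and the 24 libraries include normal ovary and oviduct. These shares therefore do not measure the part of strain. Usp29 was at 20 to 97.5 CPM in the 8 OSE-BPR libraries and at no more than 4.35 CPM in the 24 others. Tdh (16.1 to 373 CPM against at most 3.12 CPM), Scn10a (4.49 to 63.1 against at most 0.931), Nr0b1 (32.3 to 163 against at most 16.5), Tceal6 (9.18 to 17.1 against at most 6.67) and Grip1 (10.2 to 45.5 against at most 10) were the others with the largest fold changes of this kind. Several lineage genes were high in a C57Bl/6 model as well. Gata4 averaged 250 ± 86.7 CPM in Ovgp1-BPR allografts and 307 ± 106 CPM in Ovgp1-BPR GEMM tumours (3 libraries each). Upk3b averaged 1040 ± 875 CPM and 909 ± 286 CPM in the same groups, and Wt1 averaged 630 ± 97.7 CPM and 665 ± 37.9 CPM. In Pax8-BPR tumours, also C57Bl/6, Gata4 averaged 38.1 ± 6.66 CPM in allografts (2 libraries) and 14.7 ± 16 CPM in GEMM tumours (4 libraries). Upk3b averaged 2.97 ± 3.69 CPM and 19.4 ± 12.3 CPM there. The C57Bl/6 models thus differed among themselves for these genes, and Ovgp1-BPR tumours also carry another Trp53 allele and Ovgp1-CreERT2. Pax8 was present in Ovgp1-BPR tumours as well (130 ± 20 CPM in allografts). On the same scale Peg3 averaged 1340 ± 663 CPM in OSE-BPR allografts, 51 ± 86.9 CPM in Ovgp1-BPR allografts and 3.94 ± 1.34 CPM in Pax8-BPR allografts (2 libraries). The part of strain in the differences between OSE-BPR and Ad-BPR allografts was not tested.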

How the data were processed

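Total RNA of mouse tumours and normal tissues was sequenced. The authors deposited RSEM expected counts and TPM values (length-normalized and scaled to the same total in each library) for 55450 genes. The tools named by the submitters' processing notes are bcl2fastq, cutadapt 1.18, STAR 2.7.0f, Picard and RSEM 1.3.1, with mm10 and GRCm38. RSEM divides reads that fit several genes in proportion. No source used here states the strandedness of counting, so overlapping and antisense genes cannot be told apart. Each data column matched a sample title, and all 55450 IDs matched GENCODE M21 (GRCm38).

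Expected counts were rounded. Genes passing filterByExpr (minimum count 10, minimum total 15) were fitted with edgeR 4.0.16 (TMM factors, quasi-likelihood test, 7 residual degrees of freedom in the 9-library fit), and p-values were adjusted by Benjamini and Hochberg's method over all genes tested. Standard errors were derived from the fold change and the F statistic. Alternatives were RLE factors, DESeq2 1.42.0, no filter, limma 3.58.1 on log2(TPM + 1), voom with quality weights, a fit of 26 tumours, leaving out each library, and the summed fit (average-linkage clusters of libraries). No 2 libraries were duplicates (lowest chi-square per degree of freedom 41.4). The test was tested on simulated data, where it called 99% of genes made 4-fold different and 39% of those made 2-fold different between the allografts. In each simulation all genes had the same dispersion, and 100 well-counted genes were changed at each fold. In the data many more genes were called and genes differ in spread, so these shares need not hold for them. Levels in other groups come from a scaling of all 32 libraries and differ slightly from those of the 9-library fit. Counting error only is covered by floors.

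The comparison and the gene lists were chosen with earlier results of these data known. Named genes were the 12 with the largest fold change in each direction (mean of at least 10 CPM in the higher group, no overlap, no predicted genes), up to 4 called members of each list and direction by lowest p (mean of at least 5 CPM), 10 genes named whatever their value, and 6 called genes with the largest fold change whose OSE-BPR libraries lay outside all C57Bl/6 libraries. Nr5a1, Lhx9, Emx2, Esr1, Pax2, Cdh1, Cdkn1c, Col1a1, Vim, Notch2, Folr1, Muc16, Lypd1, Pecam1, Padi6 and Npm2 were named after their values were seen. Promoters are from RefSeq (GRCm38.p6), which held an entry for 146 of 207 genes examined. Some genes that this rule names are not reported here.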

Additional observations from a re-analysis of the deposited data

Results flagged for a closer look

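The distance of a library from the nearest library of its group was divided by the range of the group, on log2(CPM + 0.5). A library was listed where this ratio passed Dixon's 95% critical value. Of 344 pairs of gene and group examined, 21 passed, and chance alone gives about 1 in 20. Values are CPM.

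Within OSE-BPR allografts, replicate 2 stood apart for 6 genes. It was high for Tppp3 (18.6, others 5.16 to 7.46), Eng (27.9, others 11.2 to 14.6), Scarb1 (297, others 197 to 211) and Psat1 (301, others 112 to 130), and low for Tcf7 (44.1, others 72 to 82.6) and Ccna2 (168, others 287 to 342). Replicate 5 was low for Nr0b1 (32.6, others 110 to 161) and high for Col5a1 (159, others 61.8 to 68.8). Replicate 1 was low for Timp3 (278, others 509 to 599) and high for Cdkn1c (752, others 126 to 182). Replicate 3 was low for Fgf18 (7.74, others 11 to 12.4) and H19 (167, others 452 to 631).

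Within Ad-BPR allografts, replicate 3 was high for Epcam (1040, others 803 to 825), Cd276 (316, others 186 to 201), Ccna2 (133, others 115 to 116) and Oasl1 (100, others 60.2 to 64.4). Replicate 2 was high for C1qa (253, others 153 to 165) and C1qc (214, others 122 to 130). Replicate 4 was low for Igf2r (178, others 330 to 370) and Cdh5 (43.2, others 61 to 63.9). Replicate 1 was high for Hoxa9 (19.2, others 2.88 to 3.74).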

How the results depend on the processing

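The count of 7208 called genes was 7212 with RLE factors, 7996 with DESeq2, 7726 with limma on TPM, 7979 without the filter, 7870 with voom and quality weights, 8173 in the fit of 26 tumours, and 6234 to 6854 with 1 library left out. It was 2883 in the summed fit. The count of 4510 for GEMM tumours was 3908 to 6014 under the other settings and 1879 to 4993 with 1 library left out. It was 2448 without Ad-BPR GEMM tumour 1 and 1879 without Ad-BPR GEMM tumour 2, where the lone remaining library is assumed to vary like the other groups. The interaction gave 0 calls with any library left out, 5 with DESeq2 and 1 with limma on TPM. Of 207 genes compared across settings, 199 were called, 186 of them with every library left out in turn, 152 in the summed fit, and none changed sign while called. Of the 199, 183 were called under every setting other than the summed fit. No paired analysis was possible because the labels give no replicate numbers that the groups share. With 4 and 5 libraries, the test called 39% of simulated 2-fold differences, in well-counted genes that all had the same dispersion. A gene that was not called may still differ by that much, and the share found among the genes here was not measured.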

Other observations

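Calls were uneven between chromosomes. On chromosome 7, 36.8% of tested genes were called higher in OSE-BPR allografts and 15.3% lower, with a median log2 fold change of 0.46. Chromosome 3 (33.1% higher, median 0.40), chromosome 6 (31.8%, 0.33) and chromosome 1 (30.7%, 0.345) leaned the same way. On chromosome 16, 30.9% were called lower and 7.58% higher, with a median of -0.47, and chromosome 8 (34% lower, median -0.39), chromosome 13 (28.8%, -0.29) and chromosome 14 (29.9%, -0.23) leaned to the lower side. Over all genes the shares were 22.1% higher and 21.8% lower. DNA copy number was not measured here, and its part in these shares was not tested.

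The Ad-BPR allografts differed among themselves as well. Of 11888 genes with a mean of at least 10 CPM in a model, 540 differed more than 4-fold between replicates 1 and 2 and replicates 3 and 4, with 364 higher in the first pair and 176 lower, against 1896 that differed more than 4-fold between the models. Pax8, Ltf and Muc4 were higher in replicates 1 and 2, and Krt5 was higher in replicates 3 and 4, by the values given above.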
